A study of Saccharomyces cerevisiae with 25 samples.

Results

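The genes described here are 38 genes of the yeast cell wall, chosen by name from the 6648 gene names of the deposited table. They comprise 14 mannoproteins that are, or are thought to be, held by a GPI anchor or its remnant, 4 PIR proteins, 6 transglycosylases, 6 glucanases or glucanase-like proteins, 3 genes of glucan synthesis, 3 chitin synthases, and the kinase and transcription factor genes SLT2 and RLM1. RNA was measured in budding yeast of the BY4741 background, a haploid laboratory strain of mating type a. All 25 libraries came from cells carrying pho84pr-YFP, a fluorescent protein gene behind the PHO84 promoter, and phm3 damp, a DAmP allele of VTC4 (a gene also called PHM3), which makes polyphosphate. DAmP alleles disturb the end of a transcript and usually lower its amount. The cells grew in high phosphate (1 library, 0 min), were washed, and were then followed in medium without phosphate for 6 hours at intervals of 15 min (24 libraries). The 24 were compared as 4 windows of 6 consecutive times: 15 to 90, 105 to 180, 195 to 270 and 285 to 360 min. No strain with an intact VTC4 and no course kept in high phosphate is included, so changes with time cannot be told apart from changes due to the lack of phosphate. The labels give 1 library per time and name no separate cultures, so p-values rest on how neighbouring times scatter, which may be technical or real change within a window.

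The yeast wall is a mesh of beta-1,3-glucan chains, made at the plasma membrane and remodelled outside it by glucanases and transglycosylases. Beta-1,6-glucan links this mesh to an outer layer of mannoproteins, while PIR proteins bind the beta-1,3-glucan directly. Chitin is a minor component found mainly at the bud neck and in scars. Damage to the wall activates the cell wall integrity pathway, which runs through the kinase Slt2 to the transcription factor Rlm1.

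Values are log2 RPM, the log2 of reads per 1000000 reads, and a gene is listed in a library from 10 reads upwards. The 0 min library held 4.275 M reads, as recovered from the table, and the medians were 1.638, 2.112, 0.852 and 0.567 M in the 4 windows in order of time. The libraries at 75, 120, 255, 345 and 360 min stood apart: ADA2, a coactivator gene that is no wall gene, read 7.83 to 8.92 in these 5, against 10.46 to 12.02 in the other 20. VTC4 had a value in all 25 libraries, with no library of an intact strain to set it against. Of 6 genes specific to mating type a, MFA1, MFA2, STE2 and BAR1 were listed in all 25 libraries, STE6 in 24 and ASG7 in 18. Of 4 genes specific to the opposite mating type, MF(ALPHA)2 was listed in none, MF(ALPHA)1 in 8, SAG1 in 21 and STE3 in 23. The last 3 held at most 26, 41 and 112 reads in a library. MFA1, MFA2 and STE2 reached 3621, 7602 and 2482 reads, and BAR1, STE6 and ASG7 reached 455, 343 and 109. Of the 4 genes that BY4741 lacks, HIS3, LEU2 and MET17 were listed in none and URA3 in 13, at no more than 31 reads.

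Of the 38 wall genes, 31 had enough values to be tested. The other 7 are TIR1, TIR2, TIR3, TIR4 and DAN1, mannoprotein genes known from anaerobic or cold-shocked cells, GAS2, known from sporulation, and PIR3. DAN1 was under 10 reads in every library and PIR3 was listed in 1, at 2.66 in the 105 to 180 min window. TIR1 was listed in 20 libraries with window means between 4.13 and 4.41. TIR2, TIR3, TIR4 and GAS2 were listed in 10, 11, 5 and 4 libraries. None of the 38 overlaps another gene in the RefSeq annotation of R64.

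Sequences are shown upstream of the genes that the results turn on: the 4 with the highest fold change between late and early starvation that hold a searched stress or wall motif, and FKS1, the partner against which GSC2 is set. Each runs from 450 to 151 bases before the start codon, 5′ to 3′ on the strand of the gene, in the RefSeq sequence of R64. Capitals mark the searched motifs on either strand: AGGGG, the stress response element (STRE) bound by Msn2 and Msn4; CTA and TAG with any 4 bases between them, a loose form of the Rlm1 motif; and CNCGAAA, the box bound by Swi4.
HPF1 (chrXV:31757-32056, minus strand): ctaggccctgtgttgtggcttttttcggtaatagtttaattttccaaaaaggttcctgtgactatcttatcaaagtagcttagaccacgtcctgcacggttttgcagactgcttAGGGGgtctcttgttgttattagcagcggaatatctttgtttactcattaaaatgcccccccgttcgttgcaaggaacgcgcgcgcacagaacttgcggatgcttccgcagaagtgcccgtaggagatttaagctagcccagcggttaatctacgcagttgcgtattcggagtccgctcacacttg
SED1 (chrIV:600343-600642, plus strand): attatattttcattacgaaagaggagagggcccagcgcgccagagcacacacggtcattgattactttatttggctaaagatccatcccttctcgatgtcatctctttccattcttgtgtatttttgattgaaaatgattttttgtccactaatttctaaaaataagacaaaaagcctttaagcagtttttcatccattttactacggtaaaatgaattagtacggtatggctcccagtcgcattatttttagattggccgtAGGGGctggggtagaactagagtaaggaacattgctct
GSC2 (chrVII:547814-548113, plus strand): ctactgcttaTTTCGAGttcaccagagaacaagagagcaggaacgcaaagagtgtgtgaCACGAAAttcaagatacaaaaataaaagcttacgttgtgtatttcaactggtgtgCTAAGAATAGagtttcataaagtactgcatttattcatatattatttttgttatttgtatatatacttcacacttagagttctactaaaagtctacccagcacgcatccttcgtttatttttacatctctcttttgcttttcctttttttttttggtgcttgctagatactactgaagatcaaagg
PST1 (chrIV:563077-563376, plus strand): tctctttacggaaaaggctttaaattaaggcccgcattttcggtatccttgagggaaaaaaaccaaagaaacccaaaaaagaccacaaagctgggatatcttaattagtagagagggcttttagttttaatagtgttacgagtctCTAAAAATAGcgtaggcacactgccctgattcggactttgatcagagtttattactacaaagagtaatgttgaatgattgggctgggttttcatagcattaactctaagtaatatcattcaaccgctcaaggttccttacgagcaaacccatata
FKS1 (chrXII:809547-809846, plus strand): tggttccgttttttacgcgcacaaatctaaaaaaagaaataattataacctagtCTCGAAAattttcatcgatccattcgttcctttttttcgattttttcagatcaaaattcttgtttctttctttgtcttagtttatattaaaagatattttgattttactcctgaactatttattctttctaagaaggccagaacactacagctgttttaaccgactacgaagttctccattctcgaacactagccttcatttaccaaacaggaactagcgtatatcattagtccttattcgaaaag

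The STRE began 336 bases before the start codon of HPF1 and 188 before that of SED1. The Rlm1 form began at 336 in GSC2 and 305 in PST1. GSC2 also held the Swi4 box, at 440 and 391, and FKS1 held it at 396. Over the 38 wall genes, CNCGAAA was in 15 windows (39.5%) and the loose Rlm1 form in 8 (21.1%), against 13.6 and 5.68% of the windows of 6000 protein-coding genes. AGGGG was in 6 (15.8%), against 23.4% of the 6000. Of the 6 genes that rose from early to late starvation, 2 (33.3%) held AGGGG, 2 the Rlm1 form and 2 the Swi4 box. EXG1, which rose by more than PST1, held none of these motifs and is not shown. Of the 2 genes that fell, CWP1 held the Rlm1 form and UTR2 the Swi4 box. A match describes these letters in this window and is not a measured binding site.

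Late starvation (285 to 360 min) was set against early starvation (15 to 90 min). Of the 31 tested wall genes, 6 rose and 2 fell at limma's adjusted p under 0.05 and a log2 difference of at least 1. The genes that rose were HPF1, GSC2, SED1, EXG1, PST1 and SCW4, and those that fell were UTR2 and CWP1. Of all 4742 genes tested, 12.9% rose and 3.4% fell by the same rule. In this fit 8 of the 31 wall genes changed, beside 16.3% of all genes, and whether the share of wall genes exceeds the background was not tested. The median log2 difference of the tested wall genes was 0.44, against 0.36 over all genes tested. Another 9 wall genes were higher and 3 lower at the adjusted p alone, and 11 did not pass it. In all, 20 of the 31 passed the adjusted p, as did 49.3% of all genes. The counts depended on scaling and libraries. With each library centred on its median, 2 wall genes rose and 3 fell. Over all genes 200 rose and 273 fell, in place of 610 and 161. Each median covers only the genes listed in that library, so the medians rest on unlike sets of genes. At 0 min 5574 genes were listed, from 1.23 upwards, and at 345 min 3062, from 6.09 upwards. How far this moved the centred differences was not tested. With quantile normalization 8 wall genes rose and 2 fell, where 10.2% of all genes were called (242 higher, 244 lower). Without the 5 libraries of low ADA2, 8 wall genes rose and 2 fell, where 13.2% of all genes were called (469 higher, 156 lower). In bulk RNA, fewer cells that express a gene and less of its RNA per cell cannot be told apart.

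**Figure D1:**
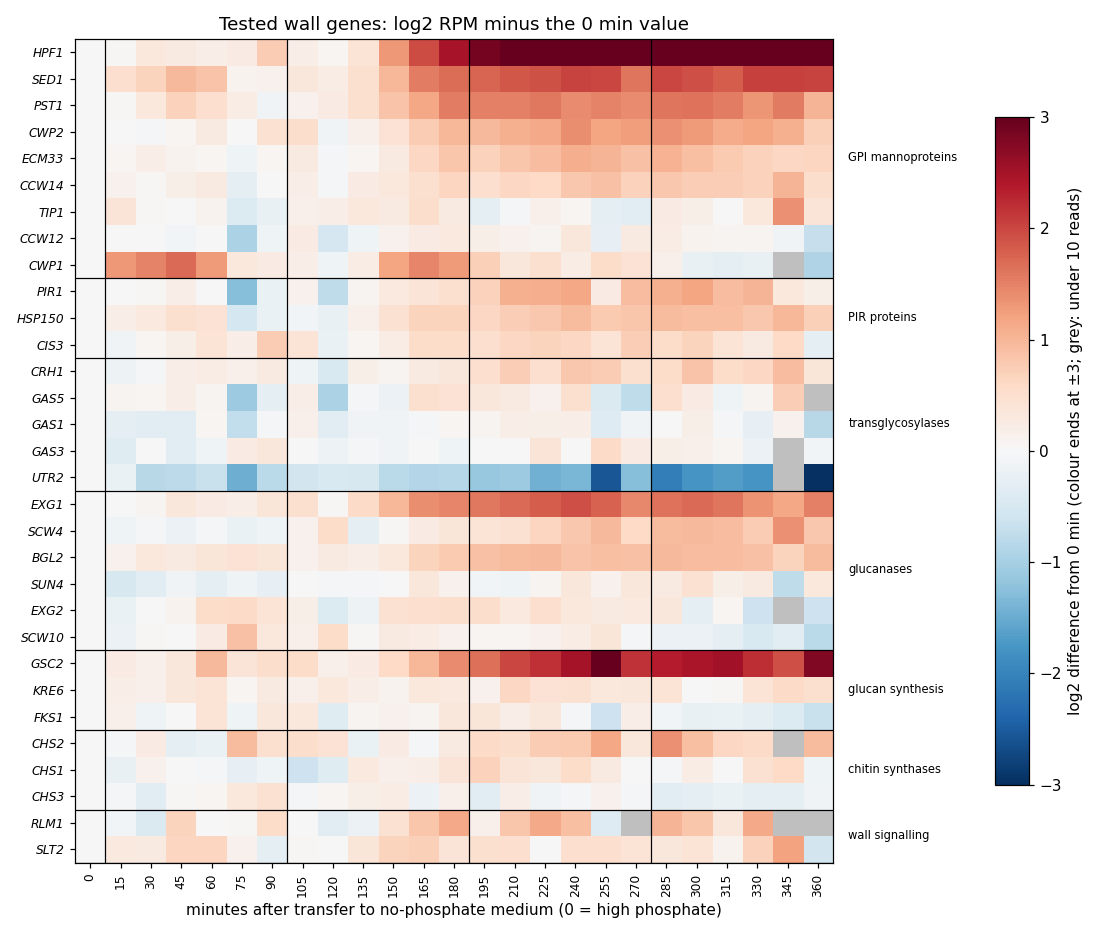
Log2 RPM of each of the 31 tested wall genes minus its value at 0 min, by minutes after the transfer (columns) and role (rows), with colours that end at 3 in either direction and grey where a library had under 10 reads. HPF1 turns red from about 150 min on, and GSC2 is reddest from 195 min on. UTR2 lies below its 0 min value in every later library with a value.

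Mannoproteins. HPF1, which codes for a mannoprotein known for keeping wine free of haze, showed the highest fold change of all the wall genes. In the late window it read 11.42 at its lowest, 11.48 at the median and 11.93 at its highest, against 7.22, 7.46 and 7.95 in the early window and 7.19 at 0 min. The windows did not overlap. The late mean was 11.58 ± 0.21 and the early mean 7.49 ± 0.24 (SD, n = 6 each), a log2 difference of 4.08 ± 0.30 (SE), or 16.9-fold (limma, adjusted p = 1.66e-09). This was the rise ranked 7 among all tested genes. Only 4% of the HPF1 values came out as whole reads, so reads may be divided with similar sequences, which was not tested, and its level is uncertain.

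HPF1 stayed between 7.19 and 7.95 up to 135 min. It then read 8.48, 9.15 and 9.66 at 150, 165 and 180 min and 10.05 to 11.20 in the 195 to 270 min window. The gene thus climbed over consecutive libraries. Its late minus early difference was 3.95 when the 5 low ADA2 libraries were left out.

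SED1, coding for an abundant wall protein known from stationary phase, read 10.16, 10.36 and 10.41 (lowest, median, highest) in the late window, against 8.46, 8.93 and 9.33 in the early window. Its 0 min value was 8.35. The late and early windows did not overlap, and their means of 10.33 ± 0.09 and 8.89 ± 0.37 (SD, n = 6 each) differed by 1.44 ± 0.21 (SE; limma, adjusted p = 5.28e-06). Within the early window SED1 read 9.33 at 45 min and 8.46 at 75 min. Of its values 72% were whole reads.

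PST1 codes for a protein released by cells that rebuild their wall, and its transcript is a known marker of wall stress. It read 7.32, 7.86 and 7.95 in the late window (lowest, median, highest) and 6.20, 6.58 and 7.0 in the early window, with no overlap. The difference was 1.17 ± 0.19 (SE), or 2.25-fold (limma, adjusted p = 2.37e-05). ECM33, its relative, has a role in wall structure and was higher by less, with 9.60 ± 0.17 in the late and 8.88 ± 0.11 in the early window (SD, n = 6 each; limma, adjusted p = 0.000122), under the fold threshold. SED1 and PST1 fell below that threshold with centred libraries, at 0.92 and 0.65, and PST1 also with quantile normalization, at 0.74.

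CWP1 and CWP2, coding for neighbouring wall mannoproteins on chromosome XI, differed in direction. CWP1 read 6.33, 7.0 and 7.38 in the late window (lowest, median, highest; 5 libraries, with under 10 reads at 345 min), against 7.48, 8.52 and 8.93 in the early window. The windows did not overlap, and their means of 6.93 ± 0.38 (SD, n = 5) and 8.28 ± 0.62 (SD, n = 6) differed by -1.35 ± 0.29 (SE; limma, adjusted p = 0.000442). Its course had 2 high stretches: 8.51 to 8.93 at 15 to 60 min and 8.41 to 8.70 at 150 to 180 min, with 7.09 to 7.54 at 75 to 135 min between them and 7.23 at 0 min. Against 7.23 at 0 min, the listed late values ran from 7.38 at 285 min to 6.33 at 360 min, and the unlisted one at 345 min lay below 6.09. The late minus 0 min difference of -0.30 ± 0.52 (SE), which leaves out 345 min, did not pass the test (limma, adjusted p = 0.672). With 1 library at 0 min this does not show that the levels were alike. The call for CWP1 was lost with every second sample (adjusted p = 0.0607 in limma) and with weights for depth (adjusted p = 0.0518 in limma). The fit with weights for depth also took its unlisted value at 345 min as no reads.

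CWP2 read 11.99, 12.44 and 12.64 in the late window (lowest, median, highest) and 11.25, 11.30 and 11.73 in the early window, with no overlap. The difference of 0.99 ± 0.16 (SE; limma, adjusted p = 1.65e-05) lay just under the fold threshold. It passed in 7 of 34 alternative fits, among them those without the 60, 90, 345 or 360 min library, at 1.02, 1.06, 1.00 and 1.07. CCW14, coding for a protein of the inner wall, read 9.10 ± 0.16 in the late and 8.40 ± 0.20 in the early window (SD, n = 6 each; limma, adjusted p = 8.89e-05), also under the fold threshold. TIP1, coding for a mannoprotein known from cold shock, differed by 0.43 ± 0.18 (SE; limma, adjusted p = 0.0471) with overlapping windows, and by 0.12 without the 5 libraries of low ADA2 (limma, adjusted p = 0.501).

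CCW12, coding for a structural mannoprotein, was listed at 12.80 ± 0.33 in the late and 12.66 ± 0.38 in the early window (SD, n = 6 each), and the difference of 0.14 ± 0.18 (SE) did not pass the test (limma, adjusted p = 0.527). It changed sign to -0.38 with centred and -0.10 with quantile-normalized libraries.

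**Figure D2:**
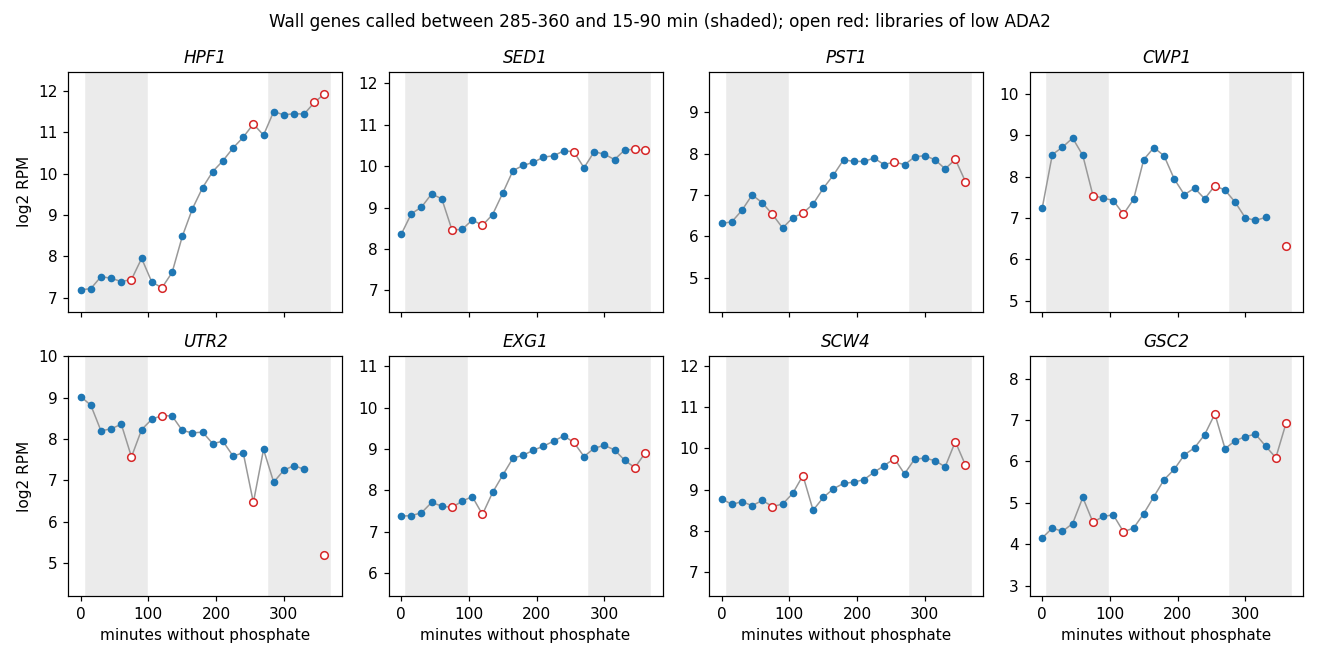
Log2 RPM of the 8 wall genes that changed between the late and the early window, against minutes without phosphate, with both windows shaded and the 5 libraries of low ADA2 as open red points. Each point is 1 library; HPF1 climbs from 150 min on, CWP1 has 2 high stretches, and UTR2 is lowest at 360 min.

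PIR proteins. None of the 3 tested PIR genes passed the fold threshold. PIR1 read 8.39, 9.18 and 9.40 in the late window (lowest, median, highest), against 6.93, 8.21 and 8.40 in the early window, a difference of 0.99 ± 0.24 (SE; limma, adjusted p = 0.0015). The windows overlapped only by 8.39 at 360 min and 8.40 at 45 min. Its lowest values fell in libraries of low ADA2 (6.93 at 75 and 7.46 at 120 min), and with these 5 left out the difference was 1.05 (limma, adjusted p = 4.01e-06), past the threshold, as in 10 of 34 alternative fits. Leaving out the library at 15, 30, 45, 60, 345 or 360 min alone gave 1.03 to 1.11. HSP150, also called PIR2, read 10.05 ± 0.11 in the late and 9.28 ± 0.39 in the early window (SD, n = 6 each), a difference of 0.77 ± 0.17 (SE; limma, adjusted p = 0.000564). CIS3, also called PIR4, differed by 0.12 ± 0.17 (SE; limma, adjusted p = 0.562), and by -0.40 with centred libraries. Of the values of PIR1, HSP150 and CIS3, 52, 0 and 0% were whole reads, so the level of each gene is uncertain in the same way.

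PIR1 and CCW12 were the 2 of 30 wall genes with values there that read lower by over 0.5 than the mean of the neighbouring times in all 3 of the low ADA2 libraries at 75, 120 and 255 min. PIR1 was lower by 1.20, 0.86 and 0.80 and CCW12 by 0.89, 0.56 and 0.54. Of 4235 genes, 5.38% met the same criterion.

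Transglycosylases. UTR2 was the 1 of 5 tested genes that changed. UTR2 and CRH1 code for enzymes that link chitin to glucan. UTR2 read 5.19, 7.25 and 7.36 in the late window (lowest, median, highest; 5 libraries, with under 10 reads at 345 min), against 7.57, 8.24 and 8.82 in the early window and 9.03 at 0 min. The windows did not overlap. The difference was -1.43 ± 0.31 (SE), or 0.371-fold (limma, adjusted p = 0.000547). The value at 360 min was the lowest of the course, and without it the difference was -1.03 (limma, adjusted p = 0.00119). Without the 5 libraries of low ADA2 it was -1.16 (limma, adjusted p = 5.84e-06). With every second sample the call was lost (-1.05, adjusted p = 0.0813 in limma).

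CRH1 read 7.91 ± 0.21 in the late and 7.37 ± 0.17 in the early window (SD, n = 6 each), with no overlap, and the difference of 0.53 ± 0.14 (SE) stayed under the fold threshold (limma, adjusted p = 0.00261). GAS1, coding for the glucanosyltransferase that elongates beta-1,3-glucan in growing cells, read 9.48 ± 0.37 in the late and 9.34 ± 0.28 in the early window (SD, n = 6 each). GAS3 and GAS5, of the same family, differed by 0.06 ± 0.14 and 0.44 ± 0.27 (SE). None of the 3 passed the test, with limma's adjusted p = 0.498, 0.751 and 0.179, and all 3 changed sign with centred libraries, to -0.38, -0.32 and -0.08.

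Glucanases. EXG1 and SCW4 rose among 6 tested genes. EXG1, coding for the main secreted exo-1,3-glucanase, read 8.55, 8.94 and 9.09 in the late window (lowest, median, highest), against 7.39, 7.60 and 7.74 in the early window and 7.38 at 0 min. The windows did not overlap, and the difference was 1.29 ± 0.18 (SE), or 2.45-fold (limma, adjusted p = 4.35e-06). EXG1 peaked at 9.32 at 240 min. SCW4, coding for a glucanase-like wall protein, read 9.55, 9.72 and 10.16 in the late and 8.59, 8.64 and 8.74 in the early window (lowest, median, highest). Its difference was 1.09 ± 0.14 (SE; limma, adjusted p = 1.14e-06), with no overlap. With centred libraries EXG1 and SCW4 were under the fold threshold, at 0.77 and 0.57.

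SCW10, the relative of SCW4, was lower, with 8.14 ± 0.24 in the late and 8.72 ± 0.37 in the early window (SD, n = 6 each), under the fold threshold (limma, adjusted p = 0.00271). With centred libraries its difference was -1.10 and passed. Only 20% of the SCW4 and 24% of the SCW10 values were whole reads. BGL2, coding for an abundant endoglucanase of the wall, read 10.58 ± 0.11 in the late and 10.00 ± 0.10 in the early window (SD, n = 6 each), with no overlap (limma, adjusted p = 0.000248). EXG2 and SUN4 did not pass the test, at -0.46 ± 0.20 and 0.38 ± 0.16 (SE; limma, adjusted p = 0.0546 and 0.0513). EXG2 codes for a membrane-bound exoglucanase and SUN4 for a protein with a role in septation.

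Glucan synthesis. GSC2 and FKS1 code for alternative catalytic subunits of beta-1,3-glucan synthase. FKS1 is known as the subunit of growing cells, and GSC2, also called FKS2, is known to be induced by stress and poor carbon sources. GSC2 read 6.09, 6.55 and 6.92 in the late window (lowest, median, highest), against 4.31, 4.52 and 5.13 in the early window and 4.15 at 0 min. The windows did not overlap, and the means of 6.52 ± 0.28 and 4.59 ± 0.29 (SD, n = 6 each) differed by 1.94 ± 0.21 (SE), or 3.83-fold (limma, adjusted p = 2.23e-07). Its reads never exceeded 159 in a library. The 6.09 came from 10 reads at 345 min, the fewest that are listed. No listed value of that library can lie below 6.09, so it could not overlap the early window. The difference was 1.94 also without the 5 libraries of low ADA2, and the call was kept in all 34 alternative fits, as was that of HPF1.

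FKS1 read 7.37, 7.80 and 7.95 in the late window (lowest, median, highest), against 7.90, 8.10 and 8.45 in the early window. The difference of -0.41 ± 0.16 (SE; limma, adjusted p = 0.0366) was under the fold threshold. KRE6, whose product takes part in making beta-1,6-glucan, was at 7.27 ± 0.24 in the late and 7.20 ± 0.12 in the early window (SD, n = 6 each; limma, adjusted p = 0.613), and at -0.44 with centred libraries.

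Chitin synthases and signalling. No chitin synthase gene passed the fold threshold. CHS2, coding for the synthase of the primary septum, read 6.19 ± 0.31 in the late (SD, n = 5) and 5.48 ± 0.47 in the early window (SD, n = 6; limma, adjusted p = 0.00669). CHS3, coding for the synthase of most wall chitin, read 6.81 ± 0.09 in the late and 7.14 ± 0.27 in the early window (SD, n = 6 each; limma, adjusted p = 0.0334). CHS1, coding for the repair synthase, differed by 0.27 ± 0.17 (SE; limma, adjusted p = 0.184), and by -0.25 with centred libraries.

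RLM1 read 4.52 ± 0.35 in the late window (SD, n = 4) and 3.82 ± 0.41 in the early window (SD, n = 6), a difference of 0.71 ± 0.31 (SE) that did not pass (limma, adjusted p = 0.0585). SLT2 differed by 0.08 ± 0.21 (SE; limma, adjusted p = 0.773) and by -0.44 with centred libraries. Both proteins are known to be controlled by phosphorylation, which transcript levels do not measure.

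**Figure D3:**
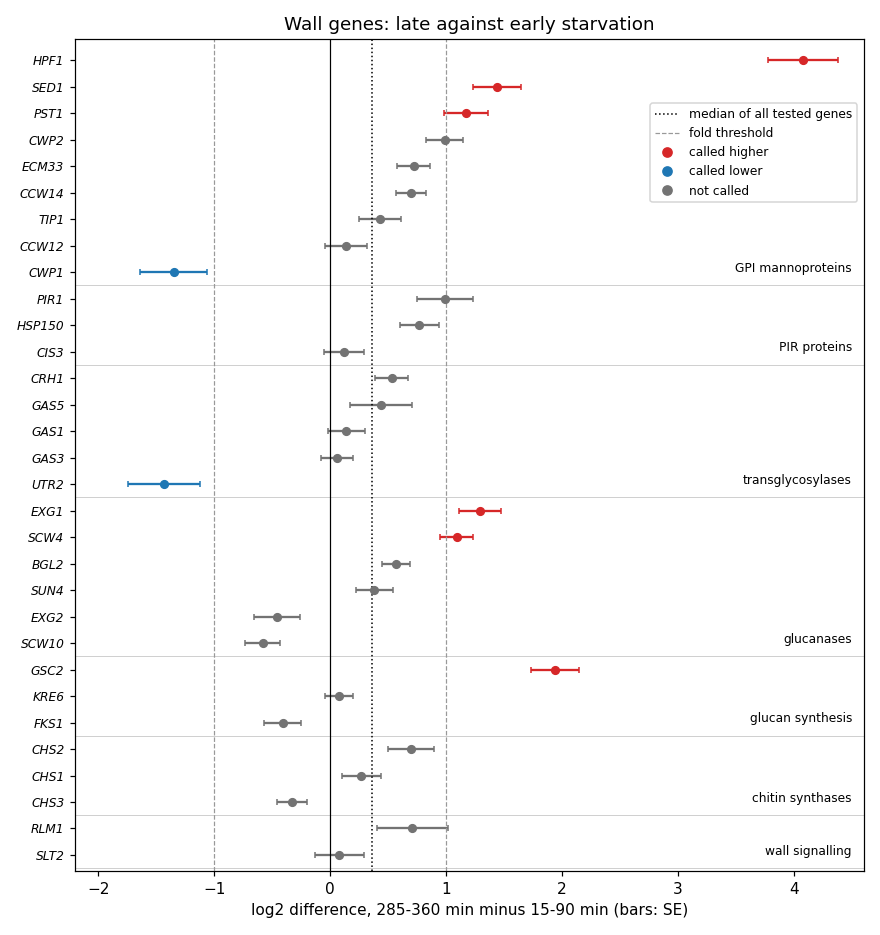
Log2 difference, late window (285 to 360 min) minus early window (15 to 90 min), for the 31 tested wall genes by role, with bars for the SE. The dotted line is the median of all tested genes (0.36) and the dashed lines are the fold threshold; 6 genes lie past the upper line and 2 past the lower one.

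Early starvation (15 to 90 min) was next set against 0 min. No wall gene was called by limma, by the same model with weights for depth, or at an unadjusted p under 0.05. Of all genes 0.127% were higher and 0.0211% lower, 0.148% together, and 210 of the 4742 had an unadjusted p under 0.05 in limma. CWP1 had the highest difference, 1.05 ± 0.51 (SE; limma, adjusted p = 0.92), and UTR2 the lowest, -0.80 ± 0.55 (SE; limma, adjusted p = 0.92). The 0 min group is 1 library, assumed to vary like the others, so small changes were not detectable. Late starvation against 0 min gave 6 higher genes (HPF1, GSC2, SED1, EXG1, PST1 and CWP2) and 1 lower (UTR2), where 20.1% of all genes were higher and 4.05% lower. HPF1 differed by 4.39 ± 0.56 and UTR2 by -2.23 ± 0.56 (SE; limma, adjusted p = 1.56e-05 and 0.00448). With centred libraries 3 were higher and 2 lower: PST1 (0.78), EXG1 (0.83) and CWP2 (0.45) lost their calls (limma, adjusted p = 0.134, 0.138 and 0.357), and SCW10 was called lower. With quantile normalization GSC2 (1.40) and PST1 (0.90) lost theirs (limma, adjusted p = 0.0899 and 0.082), and SCW4, BGL2 and HSP150 were called higher. This comparison shares the late libraries with the one above.

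Between neighbouring windows, calls fell at 1 step only. From 105 to 180 min on to 195 to 270 min, HPF1 rose by 2.41 ± 0.30 and GSC2 by 1.59 ± 0.21 (SE; limma, adjusted p = 3.45e-05 for each), where 5.08% of all genes rose and 3.23% fell, 8.31% together. HPF1 read 10.66 ± 0.43 in the later and 8.25 ± 1.00 in the earlier of these windows, and GSC2 6.40 ± 0.46 and 4.81 ± 0.47 (SD, n = 6 each). The wide SD of HPF1 reflects its climb inside the earlier window. SED1 (0.98) and EXG1 (0.88) lay under the fold threshold and passed it at 1.12 and 1.00 without the 165 min library and at 1.14 and 1.01 without the 180 min library. No wall gene was called at the step before or the step after in limma or with weights for depth, where 0% of all genes were called. An unadjusted p under 0.05 in limma was reached by 5 and 8 of the 31 wall genes, beside 234 and 610 of all 4742 genes.

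The lasting rise of HPF1, SED1, GSC2, PST1 and EXG1 began inside the 105 to 180 min window. Before that, single libraries set against the 1 library at 0 min differed by 1.30 for CWP1 at 15 min and by -0.83 for UTR2 at 30 min. No wall gene was called in the early window against 0 min. SED1 differed from its 0 min value by 0.50 at 15 min, 0.98 at 45 min and 0.86 at 60 min. For GSC2 the difference was 0.98 in the library at 60 min, between 0.35 at 45 min and 0.38 at 75 min. From 135 to 180 min, single libraries of each time differed by 2.05 for HPF1, 1.31 for RLM1, 1.19 for SED1, 1.17 for GSC2, 1.07 for PST1, 1.05 for CWP1 and 0.90 for EXG1, against -0.39 for UTR2. These are single values without a replicate. RLM1 had only 12 reads at 135 min, near the limit of 10 for a listed value, and read 3.84 from 12 reads at 195 min. RLM1 was not called late against early. Over the 24 libraries without phosphate, a spline of time with 4 degrees of freedom called 16 of the 31 genes, where 39.4% of all genes were called (limma's moderated F-test, adjusted p under 0.05 and a fitted range of at least 1). They were 7 of 9 mannoprotein genes, 2 of 3 PIR genes, 4 of 6 glucanase genes and 1 each of the transglycosylase, glucan synthesis and chitin synthase genes. Fitted ranges reached 4.52 for HPF1, 2.48 for CWP1, 2.39 for UTR2 and 2.29 for GSC2. With the low ADA2 libraries left out, 10 wall genes and 29.5% of all genes were called.

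Related genes set side by side, after their values were known, shifted in their ratio. The log2 ratio of GSC2 to FKS1 averaged -1.21 ± 0.40 in the late and -3.56 ± 0.18 in the early window (SD, n = 6 each), and was -3.89 at 0 min. The coding lengths of GSC2 and FKS1, 5688 and 5631 bases, are alike, and FKS1 kept the higher level throughout, also at 255 min, where the ratio was highest at -0.28. The ratio of CWP2 to CWP1 averaged 5.48 ± 0.15 in the late (SD, n = 5) and 3.12 ± 0.73 in the early window (SD, n = 6), with 4.05 at 0 min. CRH1 to UTR2 averaged 1.04 ± 0.80 in the late (SD, n = 5) and -0.86 ± 0.50 in the early window (SD, n = 6) and was -1.76 at 0 min. Per kb of coding sequence, CRH1 and UTR2 averaged 7.30 and 6.32 log2 RPM in the late window and 6.77 and 7.75 in the early window, so CRH1 was the higher of the pair late and UTR2 early. SCW4 to SCW10 averaged 1.61 ± 0.24 in the late and -0.07 ± 0.39 in the early window (SD, n = 6 each). In each pair no late ratio overlapped an early one. A scaling of whole libraries cancels in these ratios, which were not tested.

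**Figure D4:**
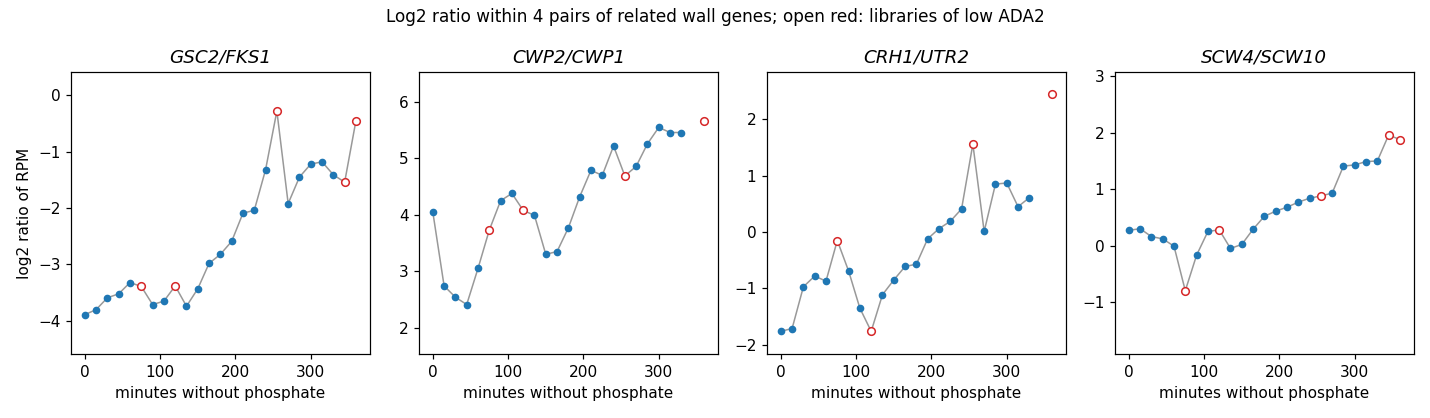
Log2 ratio of RPM within 4 pairs of related wall genes against minutes without phosphate, 1 point per library, with the 5 libraries of low ADA2 as open red points. GSC2/FKS1 stays below 0 throughout, and CRH1/UTR2 lies above 0 in all late libraries with a value.

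Per kb of coding sequence, CWP2 and CCW12 had the highest levels in both windows, at 14.24 ± 0.22 and 14.12 ± 0.33 log2 RPM per kb in the late window and 13.25 ± 0.20 and 13.97 ± 0.38 in the early window (SD, n = 6 each). The pair did not differ beyond its spread late. The next level was that of BGL2 late, at 10.66 ± 0.12, and of CIS3 early, at 10.30 ± 0.30. HPF1 ranked 6 in the late window (10.04 ± 0.21) and 21 in the early window (5.96 ± 0.24), and GSC2 ranked 30 late (4.01 ± 0.28) and 32 early (2.08 ± 0.29; SD, n = 6 each). These ranks run over the wall genes with at least 4 values in the window, 31 late and 32 early. All 38 genes together held 2.70% of the reads in the late window (range 2.23 to 3.0), against 1.76% in the early window (1.36 to 1.95) and 1.75% at 0 min. The lowest of each range was a low ADA2 library (360 and 75 min). HPF1 alone averaged 3080 RPM in the late and 182.6 RPM in the early window. RPM are shares of a library, so a change in wall RNA and an opposite change in other RNA cannot be told apart.

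A further 90 genes of the wall, outside the 38, comprised 23 of the integrity pathway, 34 for wall enzymes and their helpers, 17 for mannoproteins and 16 for mannosylation. Of the 67 tested, 9 were higher and 1 lower in the late than in the early window, with a median log2 difference of 0.29, beside the 0.36 of all genes. Over all genes 12.9% were higher and 3.4% lower, so these counts lie near the background. In the integrity pathway 2 of 20 rose: ROM1, coding for an activator of Rho1, by 1.89 ± 0.33, and SDP1, coding for a phosphatase of Slt2, by 1.83 ± 0.36 (SE; limma, adjusted p = 6.04e-05 and 0.000219). The other 18 stayed under the threshold. Of 24 wall enzyme genes, 4 rose: DSE4, CTS1, SCW11 and DSE2, all known for their part in separating daughter from mother cells, at 1.48, 1.20, 1.22 and 1.07. MKC7, coding for a surface protease, fell by 1.05. Of 7 mannoprotein genes, SPI1, a relative of SED1, and YLR194C rose by 1.73 and 1.14, and of 16 mannosylation genes OCH1, which starts the outer mannan chain, rose by 1.36.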

How the data were processed

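RNA of 25 libraries was sequenced by the authors, after lysis with lyticase, an enzyme that digests the wall, per the labels' protocols. Reads were aligned with Bowtie to R64, per the submitters' processing notes. How reads were counted, and whether by strand, is not given in the sources used here. Log2 values were deposited, and 2 to the power of each sums to 1000000 per column, so the deposited log2 values are log2 RPM; the design text speaks of values relative to the first time, which the table does not show. In each column the lowest value equals 10 steps of 1 read, and 94.9 to 97.5% of values under 200 reads lie within 0.02 of a whole number. Depth was 0.147 to 4.275 M reads, and counting error only is covered by it.

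A gene was tested if listed at 0 min and in 4 or more of the 6 libraries of every window (4742 genes). Group means were fitted over all 25 libraries with limma 3.58.1 in R 4.3.3, with Benjamini-Hochberg adjustment over all tested genes, a threshold of 0.05 and a log2 difference of at least 1; a missing value leaves that library out for that gene. A count test was planned and not run, because the deposited unit is log2. Instead, limma was run with voom weights for depth on the recovered reads, with every unlisted value taken as no reads. The fits were tested on simulated data with independent scatter around flat means and known changes added. For the window fits, drift within a window was not simulated. The test therefore did not check p-values that rest on neighbouring times. The wall genes, the further lists and the tests were chosen with earlier results of these data known. All 38 genes are accounted for; per-library values go to genes that changed and to pairs, and genes of the further lists are named where they changed. Alternatives covered filters, pseudocount, scaling and left-out libraries.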

Additional observations from a re-analysis of the deposited data

Results flagged for a closer look

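In 129 combinations of a wall gene and a window with at least 4 values, 3 genes too sparse for the tests above included, 13 had 1 library whose gap to the nearest other, as a share of the range, passed Dixon's 95% critical value, which chance passes in about 1 of 20 such groups. Of the 13, 12 fell in libraries of low ADA2. All values are log2 RPM. At 75 min CCW12 read 11.90, below 12.72 to 12.87 in the other early libraries, GAS5 read 4.53, below 5.37 to 5.84, and PIR1 read 6.93, below 8.02 to 8.40. At 120 min FKS1 read 7.68, below 8.13 to 8.38 in the other libraries of 105 to 180 min, and PIR1 read 7.46, below 8.30 to 8.68. At 255 min UTR2 read 6.47, below 7.59 to 7.95 in its window.

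At 345 min, the library of the lowest depth (0.147 M reads), BGL2 read 10.35, below 10.58 to 10.66 in the other late libraries, and SUN4 read 6.47, below 7.42 to 7.69. In the same library SCW4 read 10.16, above 9.55 to 9.76, and TIP1 read 9.16, above 7.79 to 8.16. At 360 min CCW12 read 12.16, below 12.74 to 13.08, and UTR2 read 5.19, below 6.96 to 7.36. The 1 such value outside these libraries was SLT2 at 225 min, at 5.98, below 6.36 to 6.47 in its window.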

How the results depend on the processing

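No paired analysis was possible because the replicate numbers only give the order of times within a window. The count test on recovered reads was not run, since the deposited values are log2. Of the 8 genes that changed between the late and the early window, HPF1 and GSC2 kept their call in all 34 alternatives, SED1, EXG1, SCW4 and UTR2 lost it in 1 each, and PST1 and CWP1 in 2 each. With libraries centred on the median of their listed genes, 5 wall genes changed (2 higher, 3 lower) in place of 8. Over all genes 200 rose and 273 fell, in place of 610 and 161. Quantile normalization gave 10 wall genes (8 higher, 2 lower), and 242 and 244 over all genes. Both scalings moved the median of all genes from 0.36 to -0.11. Late against 0 min had 952 higher and 192 lower genes, 327 and 433 when centred, and 327 and 297 with quantile normalization; the step to 195 to 270 min had 241 and 153, 87 and 193 when centred, 125 and 170 with quantile normalization, and 131 and 137 with the 5 low ADA2 libraries left out. The spline called 10 wall genes with every second sample and 10 with the low ADA2 libraries left out, in place of 16, beside 28.5, 29.5 and 39.4% of all genes.

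Leaving out 1 library at a time gave 8 to 10 wall genes for late against early, 7 to 8 for late against 0 min, 2 to 4 for the step to 195 to 270 min (4 without the 165 or 180 min library), 12 to 16 for the spline, and 0 for the other comparisons.

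Of the late minus early differences, 30 values of 12 genes changed sign, none of them of a gene that was called. With centred libraries these were TIP1 (-0.09), CCW12 (-0.38), CIS3 (-0.40), GAS1 (-0.38), GAS3 (-0.32), GAS5 (-0.08), SUN4 (-0.14), KRE6 (-0.44), CHS1 (-0.25) and SLT2 (-0.44). With quantile normalization they were CCW12 (-0.10), GAS3 (-0.31), GAS5 (-0.23), SUN4 (-0.15), KRE6 (-0.36), CHS1 (-0.33) and SLT2 (-0.46). With voom weights they were GAS5 (-0.66), RLM1 (-0.43) and SLT2 (-0.13). That fit also took unlisted values as no reads, among them values of GAS5 and RLM1 in the late window. Without the 270, 330 and 345 min libraries KRE6 was at -0.01 and SLT2 at -0.21, without those of low ADA2 KRE6 was at -0.06, with every second sample EXG2 was at 0.04, and with missing values at the library floor GAS3 was at -0.02. With 1 library left out at a time GAS3 ranged from 0 to 0.14, CCW12 from -0.01 to 0.27 and SLT2 from -0.09 to 0.27. The cause was not tested. Depth limits the late window most: 345 min held 0.147 M reads, and TIR2, TIR4, GAS2, PIR3 and DAN1 had no late value.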
